A study of Homo sapiens with 6 samples.

Results

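PTK2B, PTK2, SRC, FYN, PXN and BCAR1 encode kinases and adaptors that meet at focal adhesions, the sites where integrins link the matrix to actin. The genes were taken by name, 6 of the 18056 in the deposited table, and all 6 were among the 13842 genes with enough counts to test. PTK2B, an Alzheimer disease risk gene, was chosen by its p-value in the comparison of Aβ42 with vehicle, the smallest of all genes tested. Its values in that comparison are therefore given as a description, without a test. The other 5 genes were listed as its family member and partners.

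RNA was sequenced from forebrain organoids, self-organised tissue of dorsal forebrain type grown from the wild-type induced pluripotent stem cell line DYR0100. There were 3 libraries from vehicle-treated organoids, and 3 were made after exposure to 5 µM Aβ42, the aggregation-prone amyloid-β peptide. Both arms lasted 6 days and carry the same batch label, and the 3 replicates of each arm are described as independent. As every sample comes from 1 cell line, no difference between donors is covered. Total estimated counts were 16465390 to 16742958 per library. The labels give the cell type as iPSC, whereas 6 pluripotency markers summed to 1.19 to 2.13 CPM (TMM-scaled counts relative to the library's total), with TDGF1 at 0 counts in every library.

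PTK2B (PYK2) and PTK2 (FAK) are the FAK family of non-receptor tyrosine kinases. PTK2 responds mainly to integrin engagement, and PTK2B also to calcium entry, as after depolarisation of a neuron. Once autophosphorylated, either kinase binds the SH2 domain of a Src family kinase such as SRC or FYN, and the pair phosphorylates the adaptors paxillin (PXN) and p130Cas (BCAR1). In neurons FYN also phosphorylates the NMDA receptor subunit GRIN2B and tau.

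In GRCh38 coordinates of RefSeq, SRC (Entrez gene ID 6714) lies at chr20:37344699-37406050 and FYN (2534) at chr6:111660332-111873452. PXN (5829) lies at chr12:120210447-120265730 and BCAR1 (9564) at chr16:75228181-75268007. Because the kinases are paralogs, it was checked whether reads could pass from one to another, using for each gene the GENCODE release 29 transcript with the longest coding sequence. No 50-base stretch of the PTK2B, PTK2, SRC or FYN transcript occurred in a transcript of another gene. The longest identical run between the coding sequences of PTK2B and PTK2 was 18 bases, and between SRC and FYN 20 bases. FYN and YES1 shared a run of 23 bases. The SRC and FYN windows are shown 5′ to 3′ on the coding strand with that run in capitals, because they mark how far 2 abundant paralogs stay distinguishable. Both cross an exon junction in the part that encodes the kinase domain. The SRC window is coding bases 1277 to 1336 (exons 10 and 11, plus strand, chr20:37402577-37402796 with the intron) and the FYN window coding bases 1262 to 1321 (exons 12 and 13, minus strand, chr6:111674583-111694386 with the intron).
SRC: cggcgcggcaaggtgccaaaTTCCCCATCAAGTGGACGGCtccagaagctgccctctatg
FYN: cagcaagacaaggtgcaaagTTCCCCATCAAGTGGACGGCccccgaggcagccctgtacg
PXN and BCAR1 differed from the kinases here. Of the 50-base stretches of the PXN transcript, 6.44% also occurred in the antisense gene PXN-AS1, and 3.21% of those of BCAR1 occurred in other genes, mostly the pseudogene BCAR1P2. The library kit was stranded per the labels, but whether counting used strand is not given in the sources used here. All 6 genes had whole-number counts in every library, so none shows a divided read.

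The levels of the 6 genes covered a wide range in unexposed organoids. Compared per length as deposited TPM, a length-scaled share of all transcripts, FYN was highest in vehicle at 270.3 ± 5.84 TPM (mean ± SD, n = 3), above 96.4% of the genes tested. PTK2 followed at 103.9 ± 1.11 TPM and SRC at 56.1 ± 1.91 TPM. The adaptors were closest to each other, PXN at 26.5 ± 1.29 TPM and BCAR1 at 21.2 ± 0.576 TPM. PTK2B was lowest at 8.75 ± 0.906 TPM, above 24.5% of the genes tested. No 2 neighbours in this order overlapped over the vehicle libraries, and the order was the same with Aβ42, again without overlap.

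**Figure D1:**
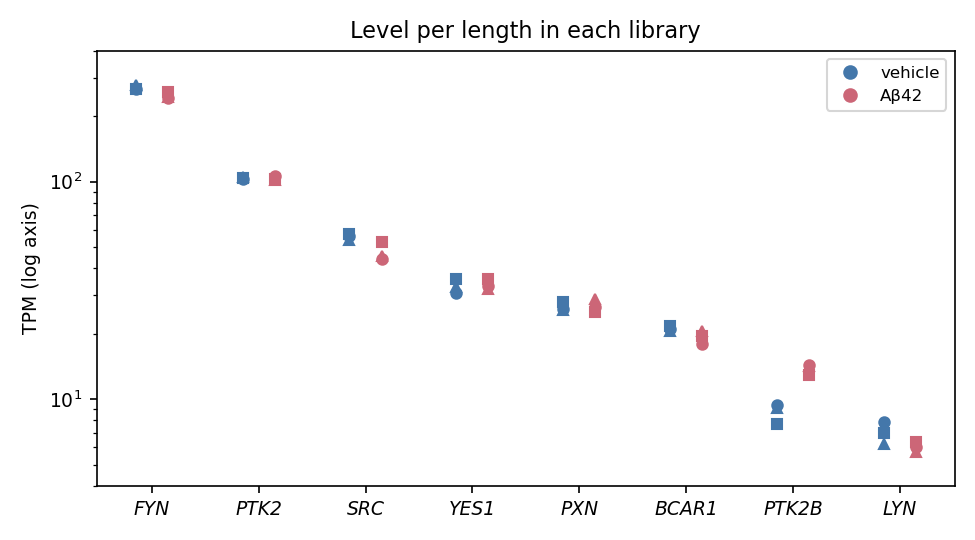
Deposited TPM on a log axis for the 6 genes and for YES1 and LYN, in the 3 vehicle libraries (blue) and the 3 Aβ42 libraries (red); circles, squares and triangles are replicates 1, 2 and 3. FYN lies between 242.2 and 277 TPM, and PTK2B between 7.71 and 9.39 TPM in vehicle and between 12.88 and 14.38 TPM with Aβ42.

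PTK2B (Entrez gene ID 2185, chr8:27310506-27459391) was more abundant in every Aβ42 library than in any vehicle library, as were 13.6% of all tested genes. PTK2B had 264, 207 and 252 counts in vehicle replicates 1 to 3 and 402, 362 and 406 counts in Aβ42 replicates 1 to 3. In CPM these were 15.9, 12.6 and 15.4 in vehicle against 24.5, 21.5 and 24.4 with Aβ42. Replicate 2 was the lowest library of each group. The fitted ratio was 1.60 (log2 fold change 0.68, SE 0.10), and the 3 same-numbered differences were 0.63, 0.77 and 0.66 on the log2 scale. Counting error alone was 6.44% in vehicle and 5.06% with Aβ42 at these counts, below the coefficients of variation between libraries, 12.1% and 7.22%. Leaving out any one library kept the log2 fold change between 0.59 and 0.75. These values come from the comparison by which PTK2B was chosen, so they describe the gene and are no separate support.

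PTK2 (5747, chr8:140657900-141002079), the other FAK family kinase, was nearly level across the libraries. It was at 177, 174 and 180 CPM in vehicle replicates 1 to 3 and at 181, 175 and 182 CPM with Aβ42. The groups overlapped, and edgeR's quasi-likelihood test gave a log2 fold change of 0.02 (SE 0.04, 95% interval -0.08 to 0.11, adjusted p-value 0.840 over all genes). On the TPM scale its log2 fold change was -0.0049, of the opposite sign. The interval leaves room for a PTK2 level from 0.946 to 1.08 times that of vehicle. Of the summed TPM of both FAK family genes, PTK2B made up 8.38%, 6.87% and 8.04% in vehicle replicates 1 to 3 and 11.9%, 11.2% and 12.2% with Aβ42. PTK2 thus remained the predominant FAK family transcript in every library.

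**Figure D2:**
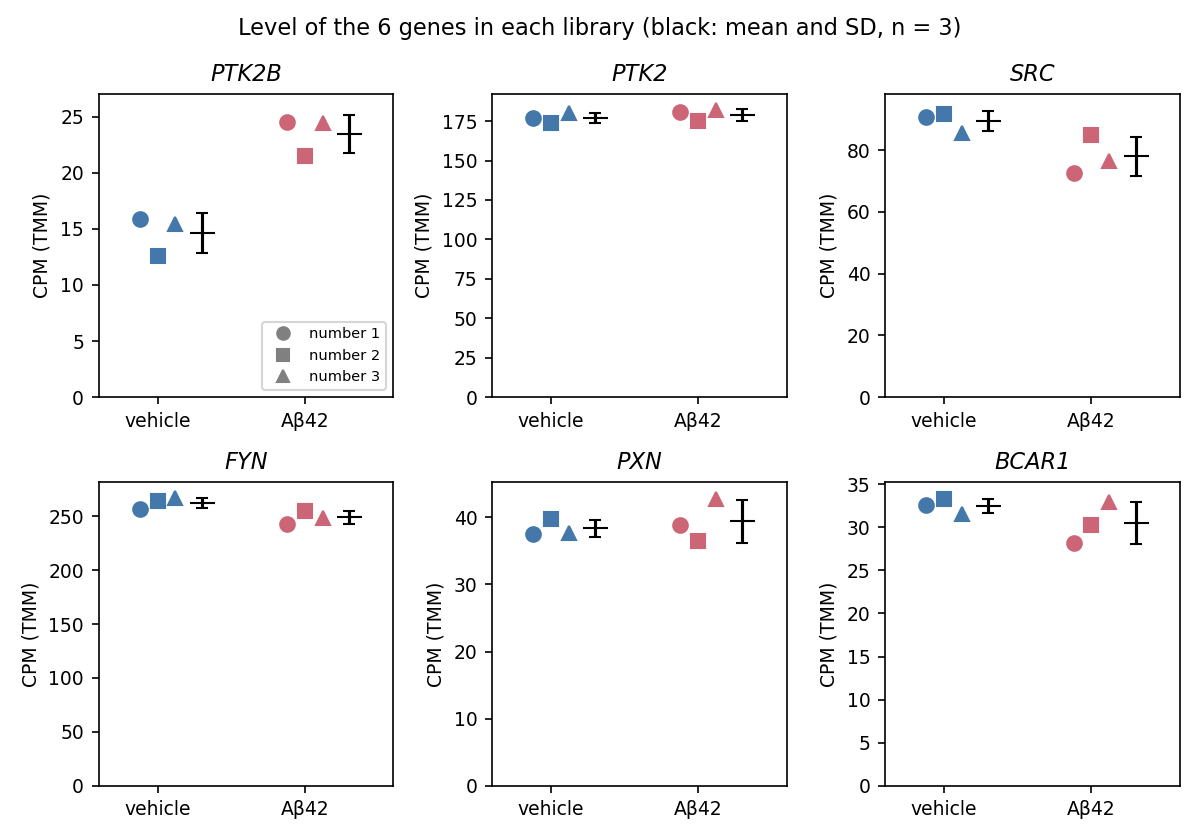
TMM-scaled CPM of the 6 genes, one panel each with axes from 0, in vehicle (blue) and Aβ42 (red) libraries; symbols mark the replicate number, and black bars the mean and SD of 3 libraries. PTK2B lies at 12.6 to 15.9 CPM in vehicle and 21.5 to 24.5 CPM with Aβ42, SRC and FYN lie lower with Aβ42 by smaller margins, and PTK2, PXN and BCAR1 overlap between groups.

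SRC, the founding member of the Src family, was lower in all 3 Aβ42 libraries. Its level was 90.8, 91.7 and 85.7 CPM in vehicle replicates 1 to 3 and 72.7, 85.0 and 76.5 CPM in Aβ42 replicates 1 to 3. The groups did not overlap, but Aβ42 replicate 2 came close below vehicle replicate 3. The log2 fold change was -0.20 (SE 0.06, 95% interval -0.34 to -0.06), and SRC did not pass edgeR's quasi-likelihood test over all genes (adjusted p-value 0.115). With the replicate number as a block it passed (adjusted p-value 0.0320), where 14.2% of all tested genes did. Over the 14 alternatives the adjusted p-value ran from 0.00522, without Aβ42 replicate 2, to 0.352, without Aβ42 replicate 3, and it passed in 3 of them. The log2 fold change was negative in all 14.

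FYN, the most abundant of the 6, showed a smaller difference in the same direction. It was at 257, 264 and 267 CPM in vehicle and 243, 255 and 249 CPM with Aβ42, so that the highest Aβ42 library lay just under the lowest vehicle library. The log2 fold change was -0.08 (SE 0.04, 95% interval -0.17 to 0.02), which did not pass (adjusted p-value 0.313, and 0.151 to 0.574 over the 14 alternatives). Counting error of 1.52% to 1.55% and a spread of 1.85% to 2.30% between libraries made FYN with PTK2 one of the most precisely measured of the 6.

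The other Src family kinases were lower in abundance or absent. YES1 (Entrez gene ID 7525), a widely expressed member, had 55.3, 62.3 and 58.6 CPM in vehicle and 59.6, 64.8 and 59.7 CPM with Aβ42 (log2 fold change 0.06, SE 0.06, adjusted p-value 0.560). Its counts were whole in 3 of 6 libraries, so reads may have been divided with another feature. LYN (4067), a member best known from blood cells, had 9.79, 9.18 and 7.68 CPM in vehicle and 8.11, 8.43 and 7.50 CPM with Aβ42 (-0.15, SE 0.13, adjusted p-value 0.490). Both overlapped between groups. FGR and BLK, members of the blood lineages, had 0 to 3 counts per library and were not tested. LCK, known from T cells, had 0 counts in all 6 libraries, which allows up to 3 counts or 0.183 CPM. By TPM, FYN made up 72.7% to 74.8% of the Src family total in every library.

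PXN and BCAR1, the adaptors that the kinases phosphorylate, overlapped between groups. PXN was at 37.6, 39.8 and 37.7 CPM in vehicle and 38.9, 36.5 and 42.8 CPM with Aβ42, where replicates 2 and 3 were the lowest and highest of all 6 libraries. Its log2 fold change was 0.04 (SE 0.07, 95% interval -0.12 to 0.20, adjusted p-value 0.763), and without Aβ42 replicate 3 it was -0.02. BCAR1 was at 32.6, 33.3 and 31.6 CPM in vehicle and 28.2, 30.3 and 33.0 CPM with Aβ42. Its log2 fold change was -0.09 (SE 0.07, 95% interval -0.25 to 0.07, adjusted p-value 0.476). In both adaptors the spread within Aβ42 was wider than within vehicle, 8.07% against 3.19% for PXN and 8.03% against 2.59% for BCAR1.

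**Figure D3:**
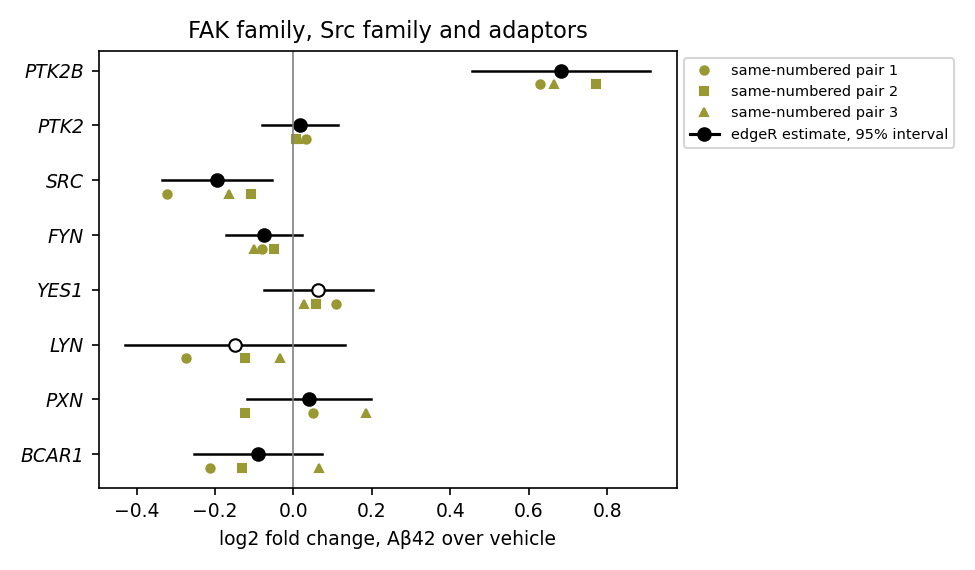
Log2 fold change of Aβ42 over vehicle with its 95% interval from edgeR's quasi-likelihood fit (black, filled for the 6 genes and open for YES1 and LYN), and below each the 3 same-numbered differences of log2 CPM. The interval of PTK2B is a description and no test, as the gene was chosen by this comparison. The 3 differences share a sign in PTK2B, PTK2, SRC, FYN, YES1 and LYN, as they did in 50.2% of all tested genes. PXN and BCAR1 have differences of both signs.

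Leaving out PTK2B, the 3 same-numbered differences had one sign in 3 of the other 5 genes, where 50.2% of all tested genes did. Of these 5, 2 had groups that did not overlap, where 27% of all tested genes did. Without a block, none of the other 5 passed edgeR's quasi-likelihood test at an adjusted p-value of 0.05, nor did any gene tested (0% called). At an unadjusted p-value under 0.05, where 23.9% of genes lay, SRC was the only one of these 5.

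The count and TPM of a gene together imply the transcript length its TPM was scaled by, which moves when the mix of its transcripts does. This length, relative to the median gene of each library, was not used to choose the genes. In PTK2B it was 1.25% shorter with Aβ42 than in vehicle (log2 difference -0.018, exact permutation p-value 0.2, two-sided), with groups that overlapped. The difference was below 1.77% in size in all 6 genes. PXN alone had groups that did not overlap (log2 difference -0.026, exact permutation p-value 0.1, the smallest that 3 libraries against 3 allow, and 0.4 after adjustment over 6 genes). Among 11881 genes with enough counts, 24.5% had implied lengths that did not overlap.

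The surrounding pathway was read from 11 lists of focal adhesion and Src biology, 168 genes of which 146 were tested. Without the 6 genes, 140 were tested, with a median log2 fold change of -0.013 against 0.003 over all genes. None of the 140 passed without a block, and 36 had an unadjusted p-value under 0.05 (25.7%, against 23.9% of all genes). The groups did not overlap in 28 of them (20%, against 27%). With the replicate block 19 passed (13.6%, against 14.2%), 4 higher and 15 lower, where 7.12% of all genes passed as higher and 7.05% as lower. Of these 19, 12 had groups that did not overlap. For those 12 the adjusted p-values lay between 0.0684 and 0.121 without the block and between 0.00268 and 0.0268 with it. They ranged from 0.000421 to 0.376 over the 14 alternatives. Without Aβ42 replicate 2, 38 of the 140 passed (27.1%, against 23.2% of all genes).

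**Figure D4:**
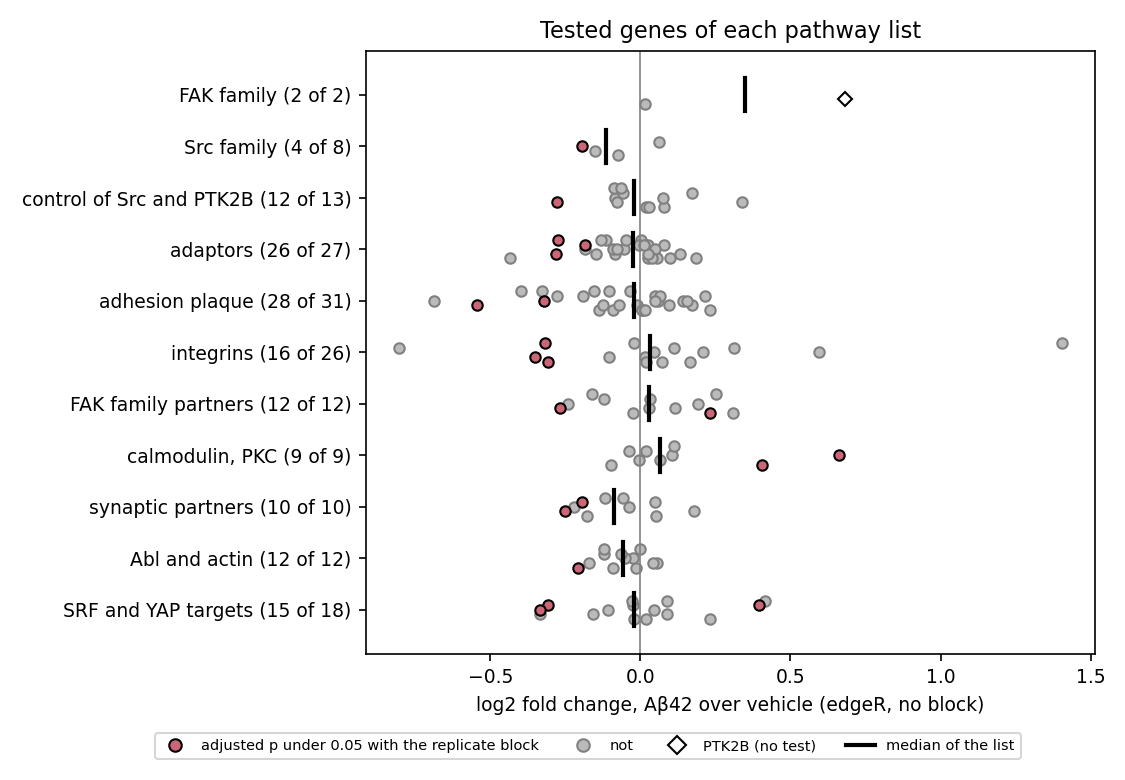
Log2 fold change of Aβ42 over vehicle (edgeR, no block) for every tested gene of the 11 lists, with the number tested of the number listed. Black bars are list medians, red points passed an adjusted p-value of 0.05 with the replicate block, and the open diamond is PTK2B, shown without a test. Medians lie between -0.113 and 0.065 except in the FAK family, which holds only PTK2B and PTK2.

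Among 12 tested enzymes and adaptors that control Src kinases or PTK2B, 1 passed with the block (8.33%, against 14.2% of all genes). That gene was CBLB, a ubiquitin ligase of tyrosine kinase signalling, at 91.8, 118 and 104 CPM in vehicle and 90.2, 89.9 and 78.6 CPM with Aβ42 (log2 fold change -0.28, SE 0.09). PTPRE, a receptor-type tyrosine phosphatase, was at 6.44 to 7.33 CPM in vehicle and 8.04 to 9.66 CPM with Aβ42 without passing (0.34, SE 0.13). CSK, which phosphorylates the inhibitory tail of Src kinases, overlapped between groups (-0.08, SE 0.07, adjusted p-value 0.482). PTPN12, which dephosphorylates BCAR1, and PTPN5, the brain phosphatase STEP that acts on FYN and PTK2B, overlapped as well (0.08 and -0.07, adjusted p-values 0.374 and 0.630). PTPN11, the phosphatase SHP2, was lower without overlap but did not pass (-0.08, SE 0.05, adjusted p-value 0.341).

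Among 26 tested genes of the paxillin and p130Cas families and their adaptors, 3 passed with the block (11.5%, against 14.2%), all lower. PAK2, a kinase that acts below RAC1 and CDC42, was at 287, 291 and 291 CPM in vehicle and 258, 270 and 237 CPM with Aβ42 (-0.19, SE 0.05). PAK3, its neuronal relative, was at 215, 271 and 223 CPM in vehicle and 196, 206 and 184 CPM with Aβ42 (-0.27, SE 0.08). NEDD9, a p130Cas family member, overlapped between groups (0.13, SE 0.07, adjusted p-value 0.252). CASS4, the family member at an Alzheimer disease risk locus, had 3 to 6 counts in vehicle and 6 to 12 with Aβ42 and was too low to test.

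Structural proteins of the adhesion plaque gave 2 of 28 genes that passed with the block (7.14%, against 14.2% of all genes), both lower. FBLIM1, a filamin-binding adaptor, was at 22.6, 20.4 and 20.4 CPM in vehicle and 16.8, 17.1 and 17.0 CPM with Aβ42 (-0.32, SE 0.08). Its counts were whole in 1 of 6 libraries. ILK, the integrin-linked pseudokinase (0.17, SE 0.06, adjusted p-value 0.148), and VASP, an actin elongation factor (0.23, SE 0.09, adjusted p-value 0.168), were higher without overlap but did not pass with or without the block. No ILK count was whole in any library.

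Of 16 tested integrin subunits, 3 passed with the block (18.8%, against 14.2% of all genes), all lower. ITGA2, a collagen receptor subunit, was at 38.1, 39.8 and 42.1 CPM in vehicle and 26.6, 37.5 and 29.9 CPM with Aβ42 (-0.35, SE 0.11). ITGA4, which pairs with ITGB1 or ITGB7, had a log2 fold change of 1.40 (SE 0.46, adjusted p-value 0.117) at 2 to 7.83 estimated counts in vehicle and 11.6 to 13.2 with Aβ42. At these few counts the ITGA4 value was 2.03 without vehicle replicate 3 and 0.21 on the log2(TPM + 1) scale. ITGA2B, the platelet integrin subunit, averaged 1.70 ± 0.115 CPM without and 2.57 ± 0.586 CPM after Aβ42 (mean ± SD, n = 3), a log2 fold change of 0.59 (SE 0.24, adjusted p-value 0.168 by edgeR).

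Genes for proteins that bind the FAK family kinases had 2 of 12 members that passed with the block (16.7%, against 14.2%), in opposite directions. SORBS2, an adaptor that links kinases to actin, was at 101, 112 and 110 CPM in vehicle and 86.7, 91.8 and 89.1 CPM with Aβ42 (-0.27, SE 0.05). GSN, the actin-severing protein gelsolin, was at 42.5, 39.6 and 43.1 CPM in vehicle and 50.8, 44.1 and 52.2 CPM with Aβ42 (0.23, SE 0.07). ASAP2, an Arf GTPase-activating protein that binds PTK2B, was lower without overlap and did not pass (-0.16, SE 0.06, adjusted p-value 0.136).

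Among the tested genes for calmodulin and protein kinase C, PRKCD passed with the block as higher. PRKCD, a calcium-independent isoform of protein kinase C, was at 12.9, 12.2 and 13.8 CPM in vehicle and 18.2, 14.4 and 18.9 CPM with Aβ42 (0.40, SE 0.12). Its Aβ42 replicate 2 was the Aβ42 library nearest to vehicle.

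Synaptic receptors and substrates linked to FYN and PTK2B gave 2 of 10 genes that passed with the block (20%, against 14.2%), both lower. GRIN2B, the NMDA receptor subunit that FYN phosphorylates, was at 444, 527 and 463 CPM in vehicle and 423, 387 and 393 CPM with Aβ42 (-0.25, SE 0.07). EPHB2, an ephrin receptor of synapses, was at 161, 161 and 166 CPM in vehicle and 138, 154 and 134 CPM with Aβ42 (-0.19, SE 0.06). Of the Abl kinase and actin genes 1 of 12 passed with the block (8.33%), as lower. ARHGAP5, a GTPase-activating protein, was lower without overlap and did not pass (-0.12, SE 0.05, adjusted p-value 0.189). The transcription factor SRF and the transcriptional coactivator YAP both respond to adhesion and actin tension. Of 15 tested transcripts known as their targets, 3 passed with the block (20%), 1 higher and 2 lower. AMOTL2, a YAP target and inhibitor, was at 65.3, 74.6 and 65.0 CPM in vehicle and 51.3, 63.4 and 50.7 CPM with Aβ42 (-0.31, SE 0.09). LATS2, a kinase of the same pathway, was higher by a small margin and did not pass (0.23, SE 0.16, adjusted p-value 0.385).

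In bulk RNA, fewer cells of a type and less RNA per cell cannot be told apart, and PTK2B is also known from microglia and other myeloid cells. The complement and receptor genes C1QA, C1QB, C1QC, TREM2 and TYROBP, 5 of the 14 microglia markers, were at 0 counts throughout, and the list summed to 3.12 to 3.96 CPM in vehicle and 3.68 to 3.90 CPM with Aβ42. CD68 made up most of the microglia sum, at 2.46 to 2.86 CPM over the libraries. Endothelial markers summed to 2.50 to 4.99 CPM in vehicle and 2.34 to 4.69 CPM with Aβ42. Of 8 proliferation markers 7 were lower with Aβ42 in every library, with sums of 682 to 815 CPM in vehicle and 443 to 632 CPM with Aβ42. Excitatory neuron markers summed to 1610 to 1690 CPM in vehicle and 1560 to 1610 CPM with Aβ42, ranges that meet. Of these 8, 4 were lower without overlap, and with the block 1 passed as higher and 3 as lower. The 8 pan-neuronal markers summed to 6340 to 6780 CPM and 5930 to 6260 CPM, with a median log2 fold change of 0.001. The pan-neuronal genes did not move together, as 3 were lower and 1, SNAP25, higher without overlap. SNAP25 was so by a bare margin, at 226 to 245 CPM in vehicle and 245 to 280 CPM with Aβ42. Over all tested genes, 13.4% were lower and 13.6% higher without overlap. Sums overlapped for mesenchyme (45.3 to 83.1 and 36.1 to 48.0 CPM) and choroid plexus (446 to 964 and 389 to 896 CPM). They did so too for astrocytes (658 to 671 and 636 to 681 CPM) and radial glia (3240 to 3320 and 3240 to 3430 CPM). SLC1A2 made up most of the astrocyte sum and TTR most of the choroid plexus sum. The median log2 fold change over the markers was -0.36 for astrocytes and -0.49 for choroid plexus, and in each list 2 of 6 passed with the block, both lower. For radial glia the median was 0.05, and 3 of 8 passed with the block, all lower. Without overlap, 2 radial glia markers were higher and 1 lower. For mesenchyme the median over 5 tested markers was -0.33, and 1 passed with the block, as lower. Without overlap, 1 mesenchyme marker was higher and 2 lower. Over all tested genes, 7.05% passed with the block as lower. The part of the proliferation, neuronal, astrocyte, choroid plexus, radial glia and mesenchyme markers in the PTK2B and SRC values was not tested.

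The genes whose levels followed PTK2B most closely over the 6 libraries were ULBP3, ACD, AFF1, INF2 and TBC1D2B, with Pearson correlations of log2 CPM between 0.992 and 0.996 among 13329 genes compared. These correlations describe 6 libraries in 2 groups, and all 5 genes, like PTK2B, were higher in every Aβ42 library and lowest in replicate 2 of each group. INF2, an actin-assembling formin, was at 44.0, 39.8 and 43.2 CPM in vehicle and 55.6, 52.7 and 58.2 CPM with Aβ42. ACD, a telomere protein of the shelterin complex, was at 13.5, 12.3 and 13.4 CPM in vehicle and 16.8, 15.3 and 16.6 CPM with Aβ42. SRC and FYN, both lower with Aβ42, had correlations of -0.88 and -0.89 with PTK2B, at ranks 12341 and 12411 of the 13329 genes. PTK2, PXN and BCAR1 had 0.59, 0.26 and -0.57. PTK2B was chosen by its difference between the groups, so any gene that differs between them tends to correlate with it. These correlations are therefore no separate support.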

How the data were processed

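Polyadenylated RNA of 6 organoid libraries was prepared with a stranded kit and PCR, without mention of molecular identifiers, per the labels' protocols, so errors cover counting and the spread between libraries only. The submitters' processing notes name STAR 2.7.11b, featureCounts 2.0.6, FastQC and GRCh38. The annotation and strand setting are not given in the sources used here. The table the authors deposited holds, for each gene, a count and a TPM per library. Of the deposited counts 12.5% to 13.1% were not whole, so they were treated as estimated counts and rounded. The deposited TPM values were scaled by the authors for length and library total.

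Genes passing filterByExpr (13842) were scaled by TMM and compared with edgeR 4.0.16 (R 4.3.3), quasi-likelihood with robust dispersion, all 6 libraries, no block, two-sided, with Benjamini-Hochberg adjustment over all tested genes and a threshold of 0.05. The SE is the log2 fold change over the square root of F, and 95% intervals use the t distribution with edgeR's degrees of freedom. Implied length is log2 of count over TPM minus the library median, for genes with a mean of 50 counts and at least 2 TPM. The fits were run on simulated counts with known changes. These had the same dispersion for every gene and no shared replicate effect, so they do not bear on the block. The members, lists and tests were chosen with earlier results of these data known. Genes were named by rule: the 6, the 8 Src family kinases, CSK, PTPN12, PTPN5, NEDD9, CASS4, per other list the 2 non-overlapping genes of lowest p-value on each side, and the 5 closest to PTK2B by correlation of log2(CPM + 0.5) at a mean of at least 1 CPM. Some genes that this rule takes in are not reported here.

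Deviations from the group means over 12187 genes correlated at 0.192, 0.409 and 0.135 between same-numbered libraries. As all exceed 0.1, same-numbered libraries were treated as pairs in the replicate block and the same-numbered differences, but not in the fit without a block. This comes from the data alone, and numbers 1 and 3 correlated crosswise as well (0.168 and 0.193). Only number 2 stood apart (0.409), so the values do not show that numbers 1 and 3 are matched. Alternatives were RLE scaling, no filter, DESeq2 1.42.0, limma 3.58.1 on log2(TPM + 1) and log2(TPM + 0.1), the replicate block, an offset for gene length, both together, and leaving out each library.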

Additional observations from a re-analysis of the deposited data

How the results depend on the processing

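Without a block no gene passed by edgeR, with 3302 genes, 38 of them in the pathway lists, at an unadjusted p-value under 0.05. The number of genes that passed was 804 by DESeq2, 360 without a filter on low counts, 1962 with the replicate block and 2018 when the length offset joined that block, and it ran from 0 to 3224 when one library was left out. For the pathway genes these numbers were 12, 2, 21 and 21, and 0 to 40 when one library was left out, the 40 coming without Aβ42 replicate 2. They include PTK2B, which was chosen by its p-value. Of the 146 pathway genes tested, 14.4% passed with the block, against 14.2% of all genes. Without Aβ42 replicate 2 it was 27.4%, against 23.2%. SRC passed with the replicate block (log2 fold change -0.20), with block plus length offset (-0.19) and without Aβ42 replicate 2 (-0.26), in a range of -0.26 to -0.15 over the fits that left out one library. The block changed no other call among PTK2, FYN, PXN and BCAR1. PTK2 reversed to -0.0049 at a TPM pseudocount of 0.1 and to -0.0048 at one of 1. PXN ran from -0.024 to 0.092 with one library left out, the implied length of SRC from -0.0019 to 0.0064 and that of FYN from -0.0098 to 0.021. The causes were not tested. At 3 libraries a group, the 95% intervals of PTK2, FYN, PXN and BCAR1 include 0, so differences of their size were not resolved.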

Other observations

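In the pathway lists 7 genes passed with the replicate block although their groups overlapped, and they are named here after their values were seen. With the block 14.4% of the tested pathway genes passed, against 14.2% of all genes. The share of all genes that passed with overlapping groups was not computed. PARVA, the parvin that joins ILK in the adhesion plaque, had a log2 fold change of -0.54 (SE 0.20). The lower ones also included DOCK1 (-0.28), the exchange factor below p130Cas and CRK, the integrin subunits ITGB5 (-0.32) and ITGB8 (-0.31), the Src substrate cortactin CTTN (-0.21) and CDC42EP3 (-0.34). TAGLN, an actin-binding SRF target, was higher (0.39, SE 0.13). Their adjusted p-values by edgeR were 0.115 to 0.241 without the block and 0.000542 to 0.0361 with it, and ran from 0.000464 to 0.530 over the 14 alternatives, of which each gene passed in 3 or 4.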
